A study of Mus musculus with 6 samples.

Results

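The endothelial marker genes are 10 genes picked out of the table by symbol, Pecam1, Cdh5, Kdr, Flt1, Tek, Tie1, Vwf, Eng, Emcn and Esam, out of 24411 genes with a deposited count. All 10 were found in the table, and all 10 were among the 12892 genes that passed the filter on low counts. The RNA came from whole extensor digitorum longus (EDL), a fast-twitch muscle of the hindlimb, of mice at the age of 50 weeks. The 3 control mice carried floxed alleles of Akt1 and Akt2 (labelled Akt1/2-floxed), and the 3 mAktDKO mice carried the same floxed alleles with the Cre recombinase Mlc1f-Cre. All 6 mice were labelled C57BL/6J, and the study used male mice unless it stated otherwise. Cre was knocked in downstream of the promoter of Mlc1f, a myosin light chain of fast fibres, so the deletion is aimed at muscle fibres and the endothelial cells keep intact floxed alleles by design. The comparison asks whether marker RNA of blood vessel cells stood at a different level, relative to most other genes, after the loss of Akt in the fibres. The share of all counts is given separately, with libraries scaled to their totals. In whole-muscle RNA, fewer cells of a type and less RNA per cell cannot be told apart. The paper reports reduced fast-twitch muscle mass in mAktDKO mice, and a level per library does not give the vessel content of a whole muscle.

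Endothelial cells line every blood vessel, and in skeletal muscle most of them form the capillaries that run along the fibres. They are held together by the adhesion proteins of Pecam1, Cdh5 and Esam, and they sense vascular endothelial growth factor (VEGF) through Kdr and Flt1. Angiopoietins act on them through Tek and its partner Tie1, and bone morphogenetic proteins of the circulation act through the coreceptor Eng. Vwf and Emcn encode products by which vessel types are often told apart in tissue sections.

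Total counts were between 13738795 and 15445523 per mouse, and the counts of the 10 genes lay between 101 and 3203. The estimate divides reads among similar genes, yet only 1 of the 60 values of these genes was not a whole number. CPM are counts relative to the size of the library, scaled here by TMM, which sets libraries against each other by genes of middling change. Akt2, which encodes an Akt isoform of insulin action in muscle and is a target of the deletion, lay at 49.1 to 52.7 CPM in the mAktDKO mice, below the 133 to 172 CPM of the control mice (log2 fold change -1.55, edgeR adjusted p = 0.000923). Akt1, the other target, was at 51.4 to 58.9 CPM against 65.5 to 66.5 CPM (-0.25, edgeR adjusted p = 0.115). The counts are per gene and do not separate the deleted exons, and other cells of the muscle also express both genes. Control mouse 2 stood apart, with a chi-square per degree of freedom of 48.2 to 65.8 against the mAktDKO mice over all genes, where control mice 3 and 4 were at 16.3 to 26.9. Control mice are named by the numbers 2 to 4 of their columns, since the labels number them otherwise.

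The promoters of the 4 receptor tyrosine kinases are shown because these genes come as pairs, Kdr with Flt1 and Tek with Tie1, whose levels were compared within each mouse. That of Emcn is shown because its estimated difference was the largest among the 10 genes. Each window runs from 250 bases before to 50 bases after the RefSeq start in GRCm38.p6, the assembly behind mm10. That start lies inside the RefSeq span of the gene given below by 617 bases for Kdr, 427 for Flt1, 203 for Tek and 16 for Emcn, and at its edge for Tie1 and Eng. RefSeq windows were matched for 6 of the 10 genes (Kdr, Flt1, Tek, Tie1, Eng and Emcn). Capitals mark the letters of 5 motifs searched on both strands, namely the Ets-type letters AGGAAG and CCGGAAGT, the letters ACAGGAA that resemble the Ets side of Fox and Ets composite sites, the Gata-type letters AGATAA and the TATA box TATAAA. A match on the other strand appears as the reverse complement, and AGGAAG can overlap ACAGGAA.
Kdr, chr5:75978406-75978705, minus strand: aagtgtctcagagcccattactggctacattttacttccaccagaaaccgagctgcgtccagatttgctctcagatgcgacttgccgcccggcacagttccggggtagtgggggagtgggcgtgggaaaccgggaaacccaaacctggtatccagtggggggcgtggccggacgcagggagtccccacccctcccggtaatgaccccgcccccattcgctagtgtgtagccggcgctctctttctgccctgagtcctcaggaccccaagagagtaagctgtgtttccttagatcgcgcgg
Flt1, chr5:147725962-147726261, minus strand: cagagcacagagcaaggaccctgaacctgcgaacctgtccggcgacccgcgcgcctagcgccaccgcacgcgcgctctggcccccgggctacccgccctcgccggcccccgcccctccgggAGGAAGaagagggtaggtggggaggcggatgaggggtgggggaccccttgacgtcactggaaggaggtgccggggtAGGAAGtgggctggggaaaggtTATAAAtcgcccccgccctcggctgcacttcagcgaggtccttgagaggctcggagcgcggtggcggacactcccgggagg
Tek, chr4:94739039-94739338, plus strand: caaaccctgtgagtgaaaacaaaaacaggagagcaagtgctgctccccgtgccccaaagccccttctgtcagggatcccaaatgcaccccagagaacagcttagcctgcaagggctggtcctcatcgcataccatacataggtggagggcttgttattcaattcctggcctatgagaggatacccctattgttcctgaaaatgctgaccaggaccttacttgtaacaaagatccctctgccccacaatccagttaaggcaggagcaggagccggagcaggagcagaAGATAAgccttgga
Tie1, chr4:118489800-118490099, minus strand: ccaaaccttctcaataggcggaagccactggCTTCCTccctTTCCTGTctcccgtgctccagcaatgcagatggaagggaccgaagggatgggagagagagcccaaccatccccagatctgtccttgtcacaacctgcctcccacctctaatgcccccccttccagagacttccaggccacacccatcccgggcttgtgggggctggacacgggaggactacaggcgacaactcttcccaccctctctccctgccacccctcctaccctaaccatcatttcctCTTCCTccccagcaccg
Emcn, chr3:137340828-137341127, plus strand: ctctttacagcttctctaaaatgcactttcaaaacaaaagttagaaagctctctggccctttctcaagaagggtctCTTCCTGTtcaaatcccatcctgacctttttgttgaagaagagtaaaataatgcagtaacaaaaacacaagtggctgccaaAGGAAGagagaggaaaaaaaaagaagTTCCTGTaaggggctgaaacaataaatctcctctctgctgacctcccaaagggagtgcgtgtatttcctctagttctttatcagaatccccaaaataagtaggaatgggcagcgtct

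AGGAAG was found in 4 of the 6 windows (Flt1, Tie1, Eng and Emcn), and 35.4% of all 32851 RefSeq windows of this length hold it. ACAGGAA was found in 2 of the 6 (Tie1 and Emcn), against 8.67% of all windows. AGATAA was in the window of Tek alone (11.2% of all windows) and TATAAA in that of Flt1 alone (13.6%), while CCGGAAGT was in none of the 6 (3.89%). A match is a description of letters and not of a bound site. The GC content was 70.7% for Flt1 and 60.7% for Kdr, and 41% for Emcn.

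None of the 10 endothelial marker genes differed between the genotypes at an adjusted p under 0.01 in edgeR's quasi-likelihood test, the threshold that the study's methods state, where 0.0233% of the 12892 genes were called. None passed at an adjusted p under 0.05 either (1.18% of all genes) or with DESeq2 at 0.01 (3.55% of the genes to which it gave an adjusted p, 0.936% of them higher in the mAktDKO mice). With DESeq2 at 0.05, 0 of the 10 were higher, against 2.68% of those genes. At an unadjusted p under 0.05, a level that 24.5% of all genes reached, there were 2, Cdh5 and Emcn. Both were higher in the mAktDKO mice, against 11.4% of all genes in that direction and 13.1% in the other. The estimate was above 0 for 6 genes and below 0 for 4, with a median log2 fold change of 0.041 beside 0.017 for all tested genes. Over the fits that left out a mouse the estimate was below 0 for 3 to 5 genes and 0 of the 10 were called. The median was -0.0060 without mAktDKO mouse 1, -0.0055 without control mouse 4, 0.075 without control mouse 2, 0.084 without mAktDKO mouse 2, 0.095 without mAktDKO mouse 3 and 0.11 without control mouse 3. The groups overlapped for all 10 genes, whereas they did not overlap for 31.1% of all genes tested.

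**Figure D1:**
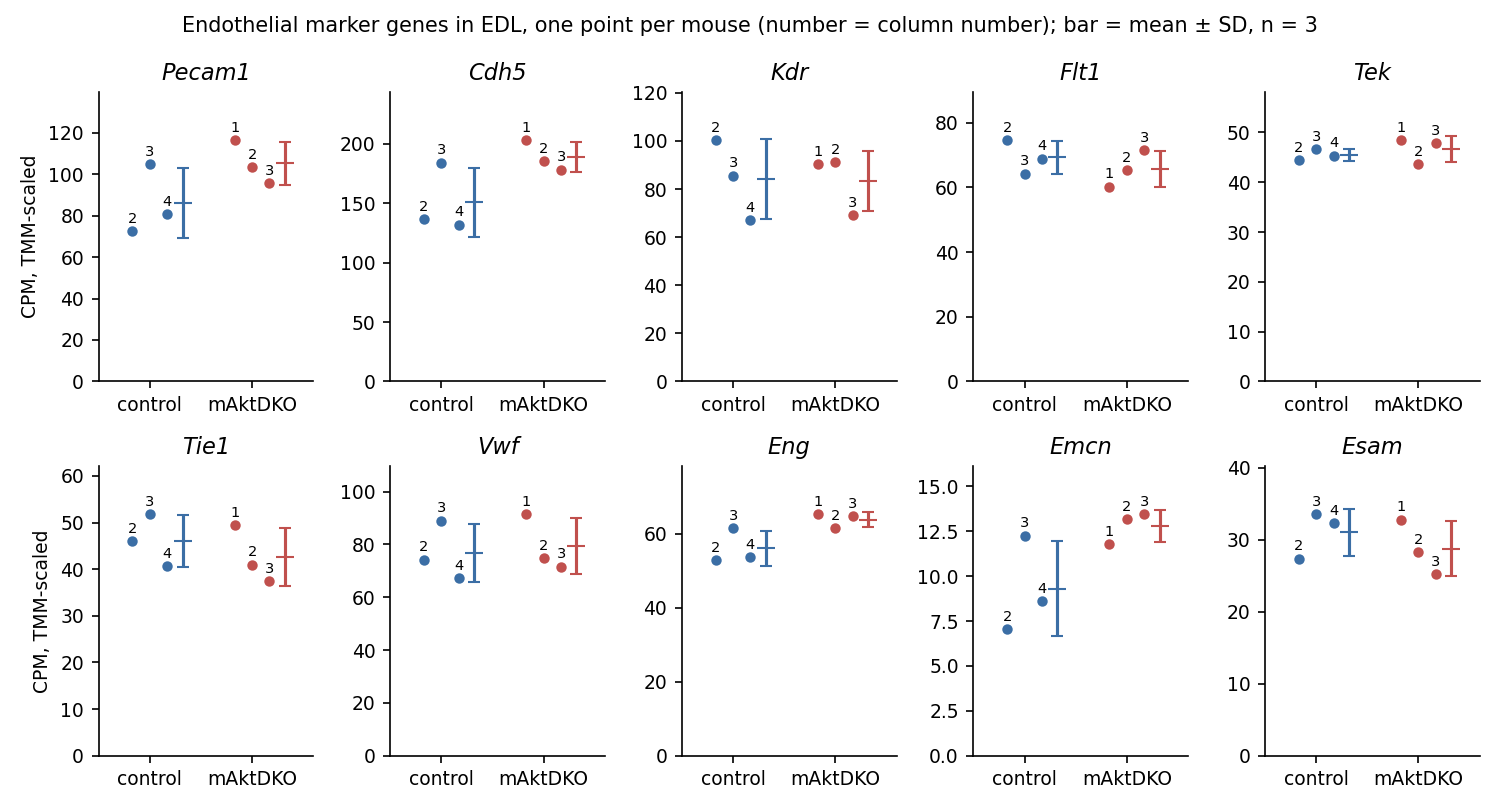
TMM-scaled CPM (vertical axis, from 0) of each endothelial marker gene in each mouse, with the column number beside the point and the mean ± SD of 3 mice per group to its right. Control mouse 3 lies among the mAktDKO mice for Pecam1, Cdh5, Eng and Emcn, and the groups overlap for all 10 genes.

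Pecam1 encodes an adhesion molecule of endothelial junctions that platelets and leukocytes also carry. It lies on chromosome 11 of mm10 from 106654213 to 106715281. In the order used below for each gene, mAktDKO mice 1 to 3 (with the deletion) gave 116, 103 and 95.7 CPM, beside 72.4, 105 and 80.7 CPM for control mice 2 to 4 (without it). Control mouse 3 lay above 2 of the mAktDKO mice, and the other control mice lay below all of them. The mean was 105 ± 10.4 CPM (SD, n = 3) under the deletion, beside 86.0 ± 16.8 CPM (SD, n = 3), which gave an estimated log2 fold change of 0.29 with a standard error of 0.14 (edgeR, adjusted p = 0.228). Over the fits that left out a mouse it ran from 0.18 (control mouse 2) to 0.46 (control mouse 3), with adjusted p of 0.104 to 0.476.

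Cdh5 encodes VE-cadherin, the cadherin of endothelial adherens junctions. The gene spans 104101613 to 104144504 of chromosome 8. Values were 203, 185 and 178 CPM with the deletion, beside 137, 184 and 132 CPM without it. The pattern was that of Pecam1, with control mouse 3 between mAktDKO mice 2 and 3. The estimate on the log2 scale was 0.32 with a standard error of 0.13 (edgeR, adjusted p = 0.173), with a 95% interval of 0.029 to 0.62. The fits that left out a mouse ranged from 0.23 (control mouse 4) to 0.49 (control mouse 3), with adjusted p of 0.0911 to 0.369.

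Esam, on chromosome 9 from 37528089 to 37538319, encodes a junction protein of endothelial cells and platelets. Values were 32.8, 28.2 and 25.2 CPM with the deletion, beside 27.3, 33.5 and 32.3 CPM without it. The lowest value was in mAktDKO mouse 3 and the highest in control mouse 3. EdgeR estimated a log2 difference of -0.11 with a standard error of 0.12 (adjusted p = 0.595). Leaving out mAktDKO mouse 1 gave -0.22, and leaving out mAktDKO mouse 3 gave -0.040.

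Kdr encodes VEGF receptor 2, the receptor that carries most of the growth signal of VEGF. It lies on chromosome 5 from 75932827 to 75979072. Values were 90.4, 91.1 and 69.1 CPM with the deletion, beside 100.3, 85.6 and 67.1 CPM without it. The lowest and the highest value were both in control mice. The estimate on the log2 scale was -0.014 with a standard error of 0.16 (edgeR, adjusted p = 0.966), with a 95% interval from -0.37 to 0.34. It was -0.16 without control mouse 4, and above 0 without mAktDKO mouse 3 (0.091) and without control mouse 2 (0.13).

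Flt1 encodes VEGF receptor 1, which binds VEGF tightly and signals weakly, and of which a soluble form exists. It lies on chromosome 5 from 147561604 to 147726438. Values were 60.2, 65.3 and 71.5 CPM with the deletion, beside 74.6, 64.3 and 69.0 CPM without it. The order of the mice was nearly the opposite of that for Pecam1, with mAktDKO mouse 1 lowest and control mouse 2 highest. EdgeR estimated a log2 difference of -0.077 with a standard error of 0.093 (adjusted p = 0.632). It was -0.16 when mAktDKO mouse 3 was left out and -0.019 when mAktDKO mouse 1 was.

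Tek encodes the angiopoietin receptor Tie2, on chromosome 4 from 94739086 to 94874976. It varied least of the 10 genes between mice, with 48.4, 43.6 and 47.9 CPM under the deletion, beside 44.4, 46.7 and 45.4 CPM in controls. The highest and the lowest value were both in mAktDKO mice. The estimate on the log2 scale was 0.036 with a standard error of 0.080 (edgeR, adjusted p = 0.808), with a 95% interval from -0.14 to 0.22. The fits that left out a mouse gave 0.0020 (mAktDKO mouse 3) to 0.082 (mAktDKO mouse 2).

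Tie1, the partner receptor of Tek with no firmly known ligand of its own, lies on the same chromosome from 118471191 to 118489849. Values were 49.5, 41.0 and 37.4 CPM with the deletion, beside 46.0, 51.7 and 40.6 CPM without it. Each group had values on both sides of the other group's mean. EdgeR estimated a log2 difference of -0.11 with a standard error of 0.13 (adjusted p = 0.599). Over the fits that left out a mouse it ran from -0.24 (mAktDKO mouse 1) to -0.026 (control mouse 3).

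Eng encodes endoglin, the coreceptor for BMP9 and BMP10, which monocytes also carry. On chromosome 2 it spans 32646595 to 32682669. Values were 65.2, 61.4 and 64.7 CPM with the deletion, beside 52.9, 61.5 and 53.7 CPM without it. The groups met only at mAktDKO mouse 2 and control mouse 3. The estimate on the log2 scale was 0.19 with a standard error of 0.085 (edgeR, adjusted p = 0.215). Leaving out control mouse 2 gave 0.15, the lowest of such fits, and leaving out control mouse 3 gave 0.26, the highest.

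Vwf encodes von Willebrand factor, a clotting protein that endothelial cells store in Weibel-Palade bodies and that is more abundant in veins than in capillaries. On chromosome 6 it spans 125552948 to 125686679. Values were 91.3, 74.8 and 71.6 CPM with the deletion, beside 74.2, 88.9 and 67.1 CPM without it. The groups covered nearly the same range. EdgeR estimated a log2 difference of 0.046 with a standard error of 0.13 (adjusted p = 0.849). It turned below 0 without mAktDKO mouse 1 (-0.069) and without control mouse 4 (-0.043), and was 0.16 without control mouse 3.

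Emcn encodes endomucin, a sialomucin on the surface of capillary and venous endothelium. It lies on chromosome 3 from 137341062 to 137431069. Values were 11.8, 13.2 and 13.4 CPM with the deletion, beside 7.06, 12.3 and 8.62 CPM without it. Control mouse 3 lay above mAktDKO mouse 1, and control mice 2 and 4 lay below all mAktDKO mice. The estimate on the log2 scale was 0.46 with a standard error of 0.19 (edgeR, adjusted p = 0.174), with a 95% interval of 0.038 to 0.88. Without control mouse 3 it was 0.71 (adjusted p = 0.0911, with 0.0911 to 0.398 over such fits), and without control mouse 2 it was the lowest of the fits that left out a mouse, at 0.29.

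**Figure D2:**
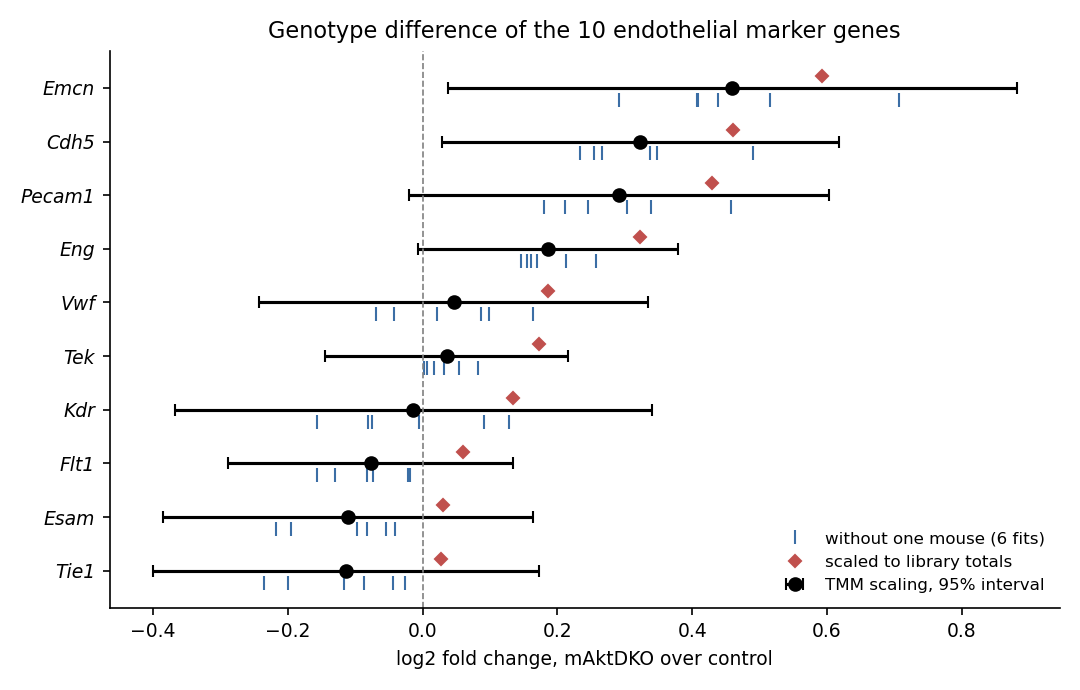
Log2 fold change of mAktDKO over control (horizontal axis) for each endothelial marker gene, with its 95% interval under TMM scaling (black), the 6 fits that each left out a mouse (blue ticks) and the value with scaling to library totals (red). The estimates run from -0.11 for Tie1 to 0.46 for Emcn, and the values with library totals are all above 0, as are 70.4% of all tested genes.

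The sum of the 10 genes was 769, 707 and 675 CPM in mAktDKO mice 1 to 3 and 636, 733 and 596 CPM in control mice 2 to 4. The means were 717 ± 47.9 CPM (SD, n = 3) and 655 ± 70.6 CPM (SD, n = 3), and their ratio was 1.09. They differed by less than 1 SD of the control group and by more than 1 SD of the mAktDKO group. Control mouse 3 was second only to mAktDKO mouse 1. As a share of all counts, the sum was 0.0825%, 0.0769% and 0.06655% in mAktDKO mice 1 to 3. Control mice 2 to 4 were at 0.0589%, 0.0712% and 0.0574%, so the groups overlapped.

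The comparison was repeated with other scalings between libraries. Genes of the contractile apparatus and energy supply of fast fibres, 12 in number, took 15.1% to 15.6% of the counts in the mAktDKO mice and 15.6% to 16.6% in the control mice. Acta1, skeletal actin, was at -0.18 (edgeR adjusted p = 0.306) and Ckm, muscle creatine kinase, at -0.22 (edgeR adjusted p = 0.215). All 12 had an estimate below 0 with TMM, their median was -0.22 on the log2 scale, and 0 of the 12 passed the adjusted threshold in edgeR (5 had an unadjusted p under 0.05, against 13.1% of all genes in that direction, and DESeq2 called 4, against 3.55% of all genes). The groups did not overlap for 8 of the 12, against 16.6% of all genes. With libraries scaled to their totals, the median log2 fold change of all tested genes moved from 0.017 to 0.16, and that of the 10 endothelial genes moved from 0.041 to 0.18. Relative to the median of all genes, the endothelial median stayed at 0.024 with TMM and 0.023 with totals. With totals, 0 of the 10 genes had an estimate below 0, where 70.4% of all tested genes were above 0. The groups no longer overlapped for Tek, Eng and Emcn, all higher in the mAktDKO mice, against 26.5% of all genes in that direction under the same scaling. The summed level was then 753 ± 81.0 CPM (SD, n = 3) in mAktDKO and 625 ± 75.7 CPM (SD, n = 3) in control mice, and the ratio of the means was 1.205. These means differed by more than the SD of either group, while the groups still overlapped. None of the 10 genes was called under this scaling.

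**Figure D3:**
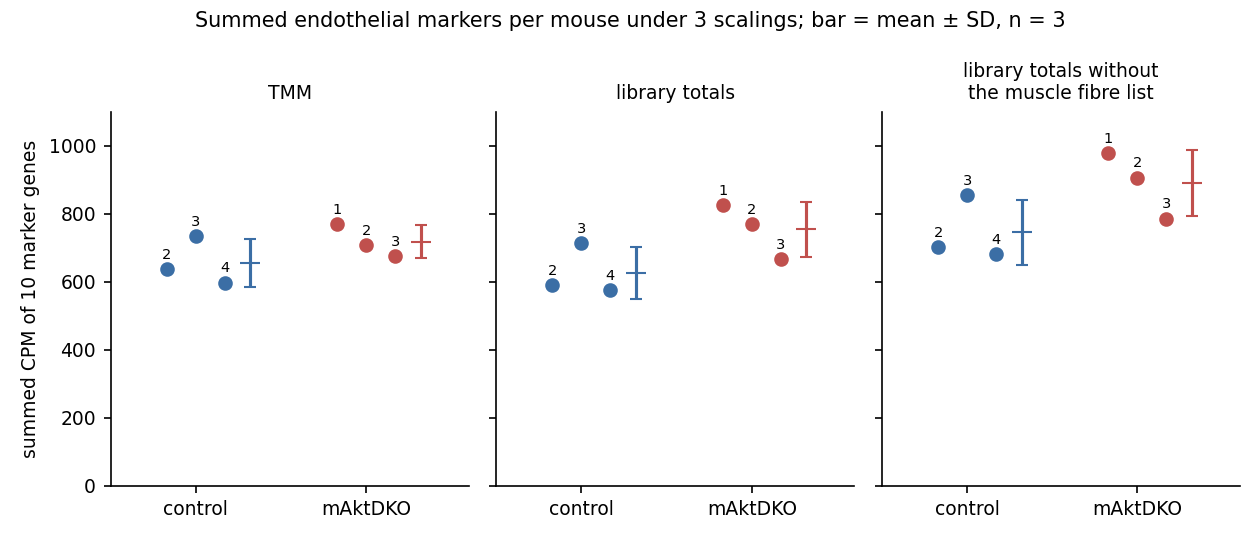
Summed CPM of the 10 endothelial marker genes (vertical axis, from 0) in each mouse under 3 scalings, with the column number beside each point and the mean ± SD of 3 mice per group. The ratio of the group means is 1.09 with TMM, 1.205 with library totals and 1.194 with library totals that leave out the muscle fibre genes, and the groups overlap in each panel.

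The 10 genes did not vary as a block between mice. Over the 6 mice, the Pearson correlation of log2 CPM had a median of 0.27 over the 45 pairs and was positive for 30 of them. These values describe 6 libraries that share their scaling, and they carry no test. Pecam1 and Cdh5 were the pair most alike (0.96), and Pecam1 and Flt1 the most unlike (-0.88). With the mean of the other 9 genes, the correlation was 0.92 for Cdh5, 0.91 for Pecam1, 0.85 for Vwf and 0.81 for Eng. It was 0.14 for Kdr and -0.86 for Flt1. The mouse with the highest level was mAktDKO mouse 1 for 5 genes, control mouse 2 for 2, control mouse 3 for 2 and mAktDKO mouse 3 for 1. Control mouse 2 was thus highest for Kdr and Flt1 and lowest for Pecam1, Eng and Emcn.

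**Figure D4:**
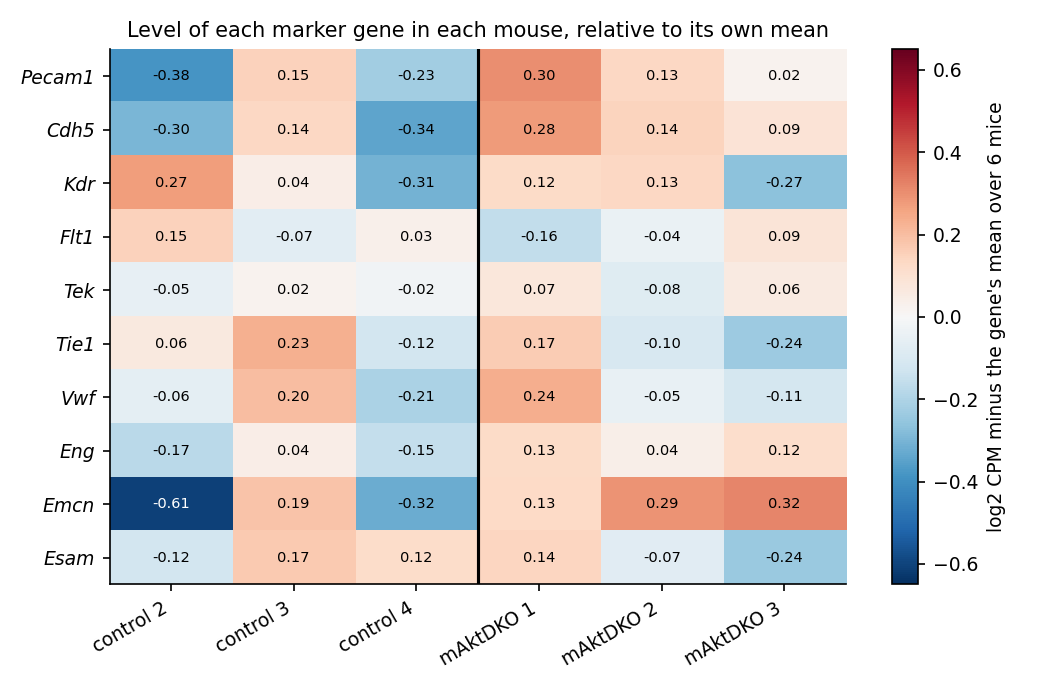
Log2 CPM of each endothelial marker gene (rows) in each mouse (columns) minus the mean of that gene over the 6 mice, in colour and digits. Control mouse 2 is at -0.61 for Emcn and 0.27 for Kdr, while Tek stays between -0.078 and 0.074 in all mice.

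Ratios of counts within a mouse do not depend on the scaling, and 4 of them were compared by exact permutation, two-sided, where 3 mice against 3 cannot give a p below 0.1. The log2 ratio of Vwf to Pecam1 was -0.35, -0.47 and -0.42 in the mAktDKO mice and 0.034, -0.24 and -0.26 in the control mice. All 3 mAktDKO mice were below all 3 control mice, by 0.26 between the means (exact permutation p = 0.1, the smallest possible, and 0.4 after adjustment over the 4 ratios). The log2 ratio of Emcn to Pecam1 was -3.04 ± 0.24 (SD, n = 3) in the mAktDKO mice and -3.23 ± 0.13 (SD, n = 3) in the control mice (exact permutation p = 0.3). That of Flt1 to Kdr was -0.34 ± 0.34 (SD, n = 3) and -0.27 ± 0.27 (SD, n = 3), with an exact permutation p = 0.6. That of Tie1 to Tek was -0.14 ± 0.20 (SD, n = 3) and 0.013 ± 0.16 (SD, n = 3), with an exact permutation p = 0.4. For both receptor pairs the means differed by less than the SD of either group.

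Levels were set beside each other per kilobase of the longest annotated transcript that carries a RefSeq accession. In the control mice Cdh5 stood first at 37.8 ± 7.24 CPM per kb (SD, n = 3), followed by Pecam1 at 24.99 ± 4.89 CPM per kb (SD, n = 3). Esam (16.6 ± 1.75), Eng (16.4 ± 1.39) and Kdr (14.2 ± 2.81 CPM per kb, all SD, n = 3) came next and overlapped each other. Tie1 (11.3 ± 1.36), Flt1 (10.1 ± 0.75), Tek (9.77 ± 0.25) and Vwf (8.69 ± 1.26 CPM per kb, all SD, n = 3) formed a further run of neighbours with overlapping ranges. Emcn was lowest at 3.598 ± 1.03 CPM per kb (SD, n = 3). In the mAktDKO mice Cdh5 was also first, at 47.3 ± 3.21 CPM per kb (SD, n = 3), and Emcn last, at 4.95 ± 0.34 CPM per kb (SD, n = 3). The longest transcript need not be the form that the muscle makes, so these levels are approximate.

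The wider endothelial programme was described by 11 lists with 113 genes, of which 106 were tested and none is a member of the 10. No gene of these lists passed an adjusted p of 0.01 or 0.05 in edgeR, and the smallest adjusted p was 0.0539. By estimate, 84 of the 106 genes (79.2%) were higher in the mAktDKO mice, beside 52.5% of all tested genes, and their median log2 fold change was 0.18. The groups did not overlap for 32 genes higher in the mAktDKO mice (30.2%, against 14.6% of all genes) and for 7 lower genes (6.6%, against 16.6%). Those 7 were Dll4 (log2 fold change -0.57), Sema3g (-0.40), Smad6 (-0.37), Tcf15 (-0.32), Jam3 (-0.30), Epas1 (-0.19) and Jup (-0.13). At an unadjusted p under 0.05, 34 were higher (32.1%, against 11.4% of all genes) and 4 lower (against 13.1%). DESeq2 called 3 of them at an adjusted p under 0.01, namely Lpl, Aplnr and Reln, all higher, where it called 3.55% of all genes and 0.936% in that direction. Cav1 (0.0121), Meox2 (0.0150), Svep1 (0.0261), Calcrl (0.0271) and Fabp4 (0.0394), all higher, also had a DESeq2 adjusted p under 0.05. In that direction 2.68% of the genes with such a p reached that level. Without control mouse 2, 82 of the 106 genes were higher (77.4%, beside 52.8% of all genes), 25 of them at an unadjusted p under 0.05 (against 9.1% of all genes in that fit), with a median of 0.14. Over the fits that left out a mouse, 75 to 86 were higher, the median was 0.14 to 0.23, and the number higher at an unadjusted p under 0.05 was lowest, at 17, without mAktDKO mouse 1 and without mAktDKO mouse 2, where 8.5% and 6.3% of all genes were. With library totals, 94 were higher (88.7%, beside 70.4% of all genes). None was called at 0.01 in these fits, while 3 passed 0.05 with library totals (1.63% of all genes) and 2 without control mouse 2 (1.1% of all genes).

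Of 26 other genes of blood vessel endothelium at large, 24 were higher by estimate, with a median log2 fold change of 0.20 beside 0.041 for the 10 marker genes. Ly6a (0.13) also stands in the list of fibro-adipogenic progenitors below. The groups did not overlap for 10 of the 26, all higher in the mAktDKO mice, against 14.6% of all genes in that direction. Calcrl, a receptor for adrenomedullin, stood at 62.0, 62.2 and 61.7 CPM under the deletion, beside 43.0, 51.6 and 49.0 CPM in controls (log2 fold change 0.37, edgeR adjusted p = 0.0624). Icam2, an adhesion molecule for leukocytes, had the largest estimate of the list, 0.51 (edgeR adjusted p = 0.167). The lowest was Nos3, the endothelial nitric oxide synthase, at -0.072 (edgeR adjusted p = 0.771). Egfl7, a secreted endothelial factor, stayed at 0.014 and Plvap, a protein of fenestral diaphragms, at 0.036.

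Of the VEGF ligands and further receptors, 6 of 8 were higher by estimate, the median log2 fold change was 0.075, and the groups overlapped for all 8. Without mAktDKO mouse 2 that median was -0.015, without control mouse 2 it was 0.039, and without mAktDKO mouse 1 and control mouse 3 in turn it was 0.20 and 0.14. Vegfa, the main ligand of Kdr and largely a product of the fibres in muscle, was at 126 and 121 CPM on average in the mAktDKO and control mice (log2 fold change 0.051, edgeR adjusted p = 0.772). Vegfb, a ligand of Flt1, had the smallest p of the list with -0.17 (edgeR adjusted p = 0.321), and Pgf, another ligand of Flt1, the largest estimate with 0.44 (edgeR adjusted p = 0.454). Of 5 tested angiopoietins and Tie regulators, 4 were higher, with a median of 0.38 (0.22 without control mouse 2). Svep1, an extracellular protein that mesenchymal cells make and that bears on Tie signalling, stood at 104, 101 and 104 CPM under the deletion, beside 55.8, 84.0 and 82.3 CPM in controls (log2 fold change 0.47, edgeR adjusted p = 0.101). Angptl4, a secreted inhibitor of lipoprotein lipase, was at 1.33 (edgeR adjusted p = 0.171), with 10.8 CPM in mAktDKO mouse 2 and 1.65 CPM in mAktDKO mouse 3. Angpt4 was below the filter on low counts.

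Of the 7 tested genes of BMP9 and endoglin signalling, 5 were higher and 2 lower, with a median of 0.12 (0.073 without control mouse 2 and 0.20 without control mouse 4). Bmpr2, the type II receptor beside endoglin, had the smallest p (log2 fold change 0.22, edgeR adjusted p = 0.174), and Smad9, at about 1 CPM, the largest estimate (0.88, edgeR adjusted p = 0.174). The ligand genes Gdf2 and Bmp10, which liver and heart supply, had 0 or 1 counts in every mouse. Of 11 genes of endothelial junctions, 8 were higher, with a median of 0.13 (0.059 without control mouse 2 and 0.073 without mAktDKO mouse 2). The junction scaffold Tjp1 had the smallest p (log2 fold change 0.29, edgeR adjusted p = 0.0954), and Jam3, an adhesion molecule, was at -0.30 (edgeR adjusted p = 0.131). Of 12 transcription factors used by endothelium, 7 were higher and 5 lower, with a median of 0.11 (0.29 without control mouse 3, 0.20 without mAktDKO mouse 3 and 0.015 without control mouse 4). Sox7 had both the smallest p and the largest estimate, with 12.2, 12.2 and 11.7 CPM under the deletion, beside 6.15, 9.27 and 8.997 CPM in controls (log2 fold change 0.56, edgeR adjusted p = 0.0875).

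Of 10 genes linked to the capillaries of muscle and their lipid uptake, 6 were higher and 4 lower, with a median of 0.071. That median was 0.0067 without mAktDKO mouse 2 and 0.048 without control mouse 4, 0.12 without mAktDKO mouse 1 and 0.14 without control mouse 3. Meox2, a homeobox factor of muscle capillaries, stood at 29.7, 28.0 and 24.4 CPM under the deletion, beside 18.2, 20.5 and 19.2 CPM in controls (log2 fold change 0.50, edgeR adjusted p = 0.0539 and 0.0150 from DESeq2). Lpl, lipoprotein lipase, which fibres and adipocytes make and capillaries display, was 885, 999 and 881 CPM against 722, 615 and 556 CPM (log2 fold change 0.55, edgeR adjusted p = 0.0540 and 0.000317 from DESeq2). Cav1, the caveolar protein that adipocytes also make, had the largest estimate of the list (0.55, edgeR adjusted p = 0.101). Gpihbp1, which holds lipoprotein lipase on the capillary wall, was at 0.011 (edgeR adjusted p = 0.970). The 4 lower genes were Rgcc at -0.44 (edgeR adjusted p = 0.205, groups overlapping), Tcf15, a transcription factor of muscle capillaries, at -0.32 (edgeR adjusted p = 0.237, groups not overlapping), the water channel Aqp1 at -0.16 (edgeR adjusted p = 0.274) and the carbonic anhydrase Car4 at -0.060 (edgeR adjusted p = 0.863). The adipocyte markers were at 55.2 to 165 CPM in sum in the mAktDKO mice and 41.9 to 92.2 CPM in the control mice, with all 6 higher by estimate (Adipoq at 1.16, edgeR adjusted p = 0.154, and Plin1 at 0.84, edgeR adjusted p = 0.198) and none at 0, and their part in these values was not tested.

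The arterial list had 7 of 9 genes higher and a median of 0.15 (0.043 without mAktDKO mouse 1 and 0.25 without mAktDKO mouse 2). Dll4, a Notch ligand of arterial and sprouting endothelium, had the smallest p and the largest difference, with 7.61, 8.27 and 6.24 CPM under the deletion, beside 12.9, 10.7 and 9.30 CPM in controls (log2 fold change -0.57, edgeR adjusted p = 0.0891). The groups did not overlap. The venous list had 6 of 6 tested genes higher and a median of 0.47 (0.34 without mAktDKO mouse 1 and 0.63 without mAktDKO mouse 3). The groups did not overlap for 2 of the 6, against 14.6% of all genes in that direction. Ackr1 had 33 to 67 counts and Selp 10 to 47, and Sele was below the filter. Aplnr, the apelin receptor, had the smallest p and the largest estimate, with 48.1, 35.2 and 29.8 CPM against 14.1, 28.7 and 17.5 CPM (log2 fold change 0.91, edgeR adjusted p = 0.0904 and 0.00420 from DESeq2). The lymphatic list also had 6 of 6 genes higher, with a median of 0.40. Reln had the smallest p (log2 fold change 0.70, edgeR adjusted p = 0.0852 and 0.00784 from DESeq2), and Ccl21a, a lymphatic chemokine that 2 control mice had at 0 counts, the largest estimate (1.86, edgeR adjusted p = 0.303). Of 6 tested genes of Weibel-Palade bodies and partners of von Willebrand factor, 5 were higher, with a median of 0.18 (0.27 without control mouse 4). F8, clotting factor VIII, which Vwf carries in blood, had the smallest p and the largest estimate (0.79, edgeR adjusted p = 0.170) at about 2 CPM, and Adamts13, the protease that cuts Vwf, had 0 counts in every mouse. These lists differ in size and level, and no difference between them was tested.

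**Figure D5:**
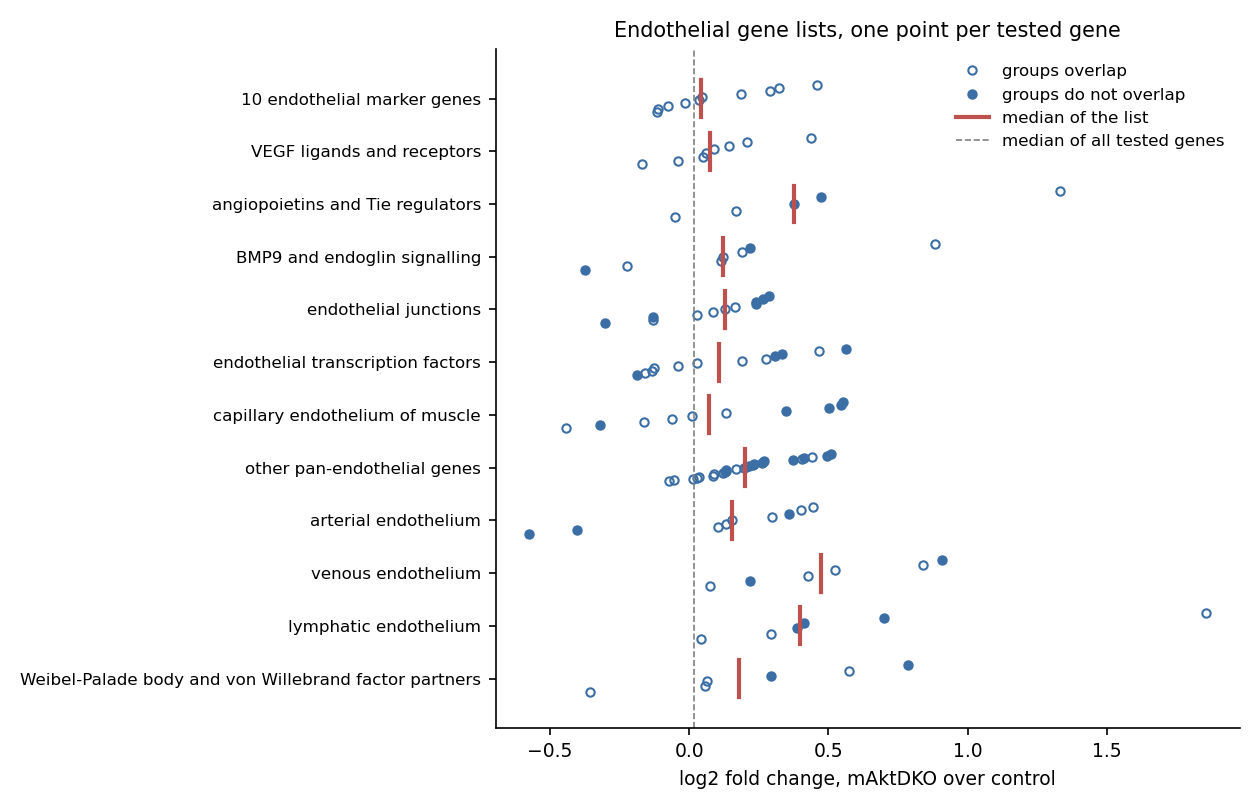
Log2 fold change of mAktDKO over control (horizontal axis) of each tested gene in the 10 marker genes and in the 11 further endothelial lists, filled where the groups do not overlap, with the median of each list (red) and of all tested genes (dashed, 0.017). The 10 marker genes hold no filled point, and the list medians run from 0.041 for the marker genes to 0.47 for the venous list.

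Markers of other cells of the muscle were read in the same libraries, since several of the 10 genes are shared with them. These lists are not fully separate from the endothelial lists. Ly6a is in the fibro-adipogenic list and the list of other endothelial genes. Vcam1 is in the satellite cell and venous lists, and Gp1ba in the platelet and Weibel-Palade lists. Platelet and megakaryocyte markers, relevant to Vwf, Pecam1 and Esam, were at 10.4 to 13.2 CPM in sum in the mAktDKO mice and 8.32 to 12.7 CPM in the control mice, with 2 of 7 genes above the filter. Pf4 was at 3.30 to 4.88 CPM and 2.45 to 3.87 CPM, and Ppbp was below the filter. Macrophage and monocyte markers, relevant to Pecam1 and Eng, were at 149 to 184 CPM in the mAktDKO mice and 105 to 161 CPM in the control mice, with 9 of 10 genes higher by estimate. Adgre1 was at 0.51 (edgeR adjusted p = 0.149) and Cd68 at 0.93 (edgeR adjusted p = 0.141) on the log2 scale. Control mouse 2, the lowest for Pecam1, Eng and Emcn, was also lowest for the macrophage sum (105 CPM) and for the sum of the fibro-adipogenic progenitor markers (8394 CPM, against 16780 to 19520 CPM in the other control mice and 19370 to 22750 CPM in the mAktDKO mice). Most of the latter sum was Col1a1, a fibrillar collagen, with 5899 CPM in control mouse 2 and 12350 and 14930 CPM in the other control mice, and Gsn of the same list was highest in control mouse 2, at 918.5 CPM. Of that list, 9 of 10 genes were higher by estimate, Pdgfra at 0.25 (edgeR adjusted p = 0.148) and Dcn at 0.57 (edgeR adjusted p = 0.0539 and 0.000317 from DESeq2). When control mouse 2 was left out, the estimates were 0.18 for Pecam1, 0.15 for Eng, 0.29 for Emcn and 0.13 for Kdr. Mural cell markers, of the pericytes and smooth muscle around the endothelium, were at 1212 to 1298 CPM and 1130 to 1241 CPM, with 5 genes higher, 5 lower and a median log2 fold change of 0.0024. Rgs5, a pericyte marker, was at 281 to 311 CPM and 200 to 277 CPM (log2 fold change 0.31, edgeR adjusted p = 0.154), and Pdgfrb at 0.12 (edgeR adjusted p = 0.348). The part of these cells in the values of the 10 genes was not tested. Summed over each list, tenocyte markers were at 1233 to 1775 CPM in the mAktDKO mice and 943 to 1274 CPM in the control mice, satellite cell markers at 57.6 to 70.3 CPM and 53.4 to 64.95 CPM, and erythroid markers at 150 to 321 CPM and 114 to 168 CPM. The estimates were 0.72 for Tnmd and 0.22 for Scx, 0.084 for Pax7 and 0.59 for Myf5, none of them called in edgeR. Of the 7 satellite cell genes, 6 were higher by estimate, and the lower one, Cdh15, a cadherin of myogenic cells, had the smallest p of that list (log2 fold change -0.42, edgeR adjusted p = 0.122), with groups that did not overlap. All 6 tenocyte genes were higher by estimate, and DESeq2 called Tnmd (adjusted p = 0.00379) and Fmod (adjusted p = 0.00654), where it called 0.936% of all genes in that direction. Hbb-bs, a beta globin, had 0 counts in the 3 control mice and 370, 154 and 146 counts in the mAktDKO mice (edgeR adjusted p = 0.0180, DESeq2 adjusted p = 1.19e-10), but globin genes share reads, so their single values are uncertain. List medians of log2 fold change were 0.31 for macrophages and monocytes, 0.28 for fibro-adipogenic progenitors and 0.40 for tenocytes. They were 0.22 for satellite cells, 0.47 for erythroid genes and 0.20 for the 2 tested platelet genes. The 106 genes of the wider endothelial lists had a median of 0.18, and no difference between lists was tested. No gene of the lists of other cells was at 0 in every mouse.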

How the data were processed

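The authors depleted total RNA of ribosomal RNA, made directional libraries, sequenced paired-end short reads, mapped them to mm10 with STAR and estimated counts per gene with RSEM 1.3.1. What was deposited are the expected counts of RSEM, 1 column per mouse, not scaled, with totals of 13738795 to 15445523. Between 3.36% and 4.09% of the values of a mouse were not whole. The strand setting of the counting is not given in the sources used here.

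The expected counts were rounded, filtered with filterByExpr (minimum count 10) and normalised with TMM, and genotypes were compared by the quasi-likelihood test of edgeR 4.0.16 in R 4.3.3, with Benjamini-Hochberg adjustment over 12892 genes. A gene was called at an adjusted p under 0.01. The standard error is the log2 fold change divided by the square root of F, and log2 CPM used a prior count of 2. CPM of single genes are on TMM-scaled library sizes. The fits were tested on simulated data. DESeq2 1.42.0 was the alternative tool. Intervals of 95% use the degrees of freedom of the edgeR test (9.015), which include those borrowed across genes. No columns were identical (lowest chi-square per degree of freedom 7.22). The p-values of edgeR and DESeq2 set a difference against the spread between these mice, with estimates of spread shared across genes. They cover no variation beyond these samples. Transcript lengths are from GENCODE M21 on GRCm38.

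The markers and lists were chosen by symbol with earlier results of these data known. All 10 markers are named. In each further endothelial list the gene with the smallest p and the gene with the largest fold change are named, with others named after their values were seen (Nos3, Egfl7, Plvap, Vegfa, Lpl, Fabp4, Gpihbp1, the lower capillary genes, the 7 lower genes without overlap and genes below the filter). In lists of other cells the first 2 genes are named, save for globins and for a list that is not reported here. Fmod, Col1a1, Gsn, Cdh15, Ackr1 and Selp were named after their values were seen, and Ly6a, Vcam1 and Gp1ba because they are shared between lists. Alternatives were other scalings, DESeq2, other filters, another threshold and leaving out each mouse. Vegfd and Afdn were found under older symbols.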

Additional observations from a re-analysis of the deposited data

How the results depend on the processing

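No paired analysis was possible because the labels state no pairs of mice between the genotypes. Control mice are numbered 2 to 4 in the table but 1 to 3 in the labels, and no fit with a replicate block was run. None of the 10 endothelial marker genes was called under any alternative, that is, other scalings, DESeq2, other filters, an adjusted p under 0.05 and each fit without a mouse. The number of genes called among all tested was 3, and 341 with DESeq2, 32 with no filter on low counts, 152 at an adjusted p under 0.05 and 0 to 8 without a mouse (0 without any mAktDKO mouse, 8 without control mouse 2). Scaling to library totals, and totals without the muscle fibre genes (chosen after seeing the data), left 0 of the 10 genes lower in place of 4, and 3 to 5 were lower without a mouse. Their median log2 fold change was 0.18 with library totals and from -0.0060 (without mAktDKO mouse 1) to 0.11 (without control mouse 3).

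With library totals and with totals that leave out fibre genes, in that order, the sign turned for Kdr (0.13, 0.12), Flt1 (0.059, 0.047), Tie1 (0.028, 0.015) and Esam (0.030, 0.017). With library totals 70.4% of all tested genes had an estimate above 0, against 52.5% with TMM. Kdr also turned without mAktDKO mouse 3 (0.091) and without control mouse 2 (0.13), and Vwf without mAktDKO mouse 1 (-0.069) and without control mouse 4 (-0.043). Over all fits without a mouse, Kdr ranged from -0.16 to 0.13 and Vwf from -0.069 to 0.16. In the same order, the list medians moved to 0.26 and 0.25 for BMP9 and endoglin signalling, 0.27 and 0.26 for junctions, 0.25 and 0.24 for transcription factors, 0.21 and 0.20 for capillary genes and 0.34 and 0.32 for other endothelial genes, 0.30 and 0.29 for arterial genes and 0.32 and 0.31 for Weibel-Palade genes, and with library totals to 0.21 for VEGF ligands and receptors. Without a mouse the medians ranged from 0.073 to 0.20 for BMP9 and endoglin signalling, 0.059 to 0.14 for junctions, 0.015 to 0.29 for transcription factors, -0.015 to 0.20 for VEGF ligands and receptors, 0.22 to 0.46 for angiopoietins and Tie regulators, 0.0067 to 0.14 for capillary genes and 0.043 to 0.25 for arterial genes. Relative to all genes, the median of the other endothelial genes was 0.18 under both TMM and library totals. The causes of the remaining moves were not tested. With 3 mice per group, the 95% interval was from -0.14 to 0.22 for Tek and from 0.038 to 0.88 for Emcn, which is the precision of these levels.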

Other observations

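The 5 tested genes whose log2 CPM followed the mean of the 10 endothelial marker genes most closely over the 6 mice were Lhx6 (Pearson r = 0.997), Kcp (0.985), Hmmr (0.982), Hjurp (0.981) and Ctso (0.977). Spearman's rho was 1 for the first 4 and 0.943 for Ctso, and without the 2 mice farthest from the median r was between 0.895 and 0.993. None belongs to the endothelial lists. They were at 0.68 to 9.09 CPM on average in a group, far below most of the marker genes, and were picked as the highest of 12892 genes over 6 mice, so the likeness is a description. Their log2 fold changes were 0.12 to 0.54, and none was called in edgeR (adjusted p from 0.385 to 0.619).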
